A study of Oryza sativa Japonica Group with 9 samples.

Results

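Rice egg cells collected shortly after pollination, when the gametes fuse, were set against egg cells before pollination. The comparison used 6 of the 9 arrays of the series, chosen by their titles and not by any measured value: 3 arrays of fertilized egg cells and 3 of unfertilized egg cells. The fertilized egg cells came from florets about 1 hour past pollination (hours after pollination are written hap, and the series text gives 1 to 1.5 hap), and the egg cells were taken at anthesis, before pollination (0 hap). The plants of both groups were greenhouse-grown rice of the cultivar Katy, Oryza sativa of the Japonica group, with no mutation or treatment named for either group. The remaining 3 arrays hold zygotes of about 3 hap.

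Each array was made from about 100 cells isolated without cell wall enzymes. The RNA, about 25 pg per cell and 2.5 ng per sample, was copied in 2 rounds of cDNA synthesis and amplification and hybridized to the Affymetrix rice genome array, on which sets of short probes, called probe sets, each report a transcript. The 3 arrays of a group are labelled biological replicates. Nothing in the labels says whether they came from separate plants or days, so the p-values measure the spread between these samples. In pooled cells, a lower signal from less RNA in every cell and one from fewer cells carrying the transcript cannot be told apart.

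In flowering plants, one sperm cell of the pollen tube fuses with the egg cell and the other with the central cell. The egg cell is held in arrest with stored transcripts and proteins, and after fusion it builds a cell wall, its nucleus fuses with that of the sperm, and its own transcription resumes. The design asks which transcripts differ in the short window around gamete fusion.

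The labels were checked against marker lists before the comparison. One free-text label field names seedlings for the egg cell arrays and pollen for the fertilized egg arrays, while the titles, the characteristics and the series text name egg cells and fertilized egg cells, which were followed. MEL1, an Argonaute protein of rice germ cells, was the only member of the egg cell marker list matched by name on the array. It read 297, 705 and 198 in fertilized eggs and 618, 272 and 1115 in egg cells, and the groups overlapped (log2 change -0.70 ± 0.56 SE, adjusted p = 0.523, limma). No gene of the sperm and pollen list or of the synergid and central cell list was matched on the array.

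Markers of other tissues did not pass the test in any list (all genes, 0.278% higher and 0.233% lower). The counts were 0 of the 6 kept genes for anther wall and 0 of 16 for photosynthetic tissue. For endosperm the count was 0 of 10 and for ovule wall 0 of 17. At the shares over all genes, such counts in short lists cannot show that other cells are absent. The summed signal of the anther list was 9292 to 10932 in fertilized eggs and 6175 to 6762 in egg cells, so these ranges did not overlap. For photosynthetic tissue the sums overlapped, at 17951 to 23911 in fertilized eggs and 16586 to 26271 in egg cells, but the median signal of its genes did not, at 189.8 to 208 in fertilized eggs and 234 to 327 in egg cells. Endosperm genes summed to 19247, 24740 and 48768 in fertilized eggs, with replicate 3 the highest, and to 13767 to 22692 in egg cells. Ovule wall genes summed to 46803 to 52919 in fertilized eggs and to 44172, 94377 and 53772 in egg cells, where replicate 2 stood apart. Their median signal was lower throughout in fertilized eggs, at 309.8 to 606, against 684, 1408 and 696 in egg cells. None of the list sums was at or near 0 in either group, and the part of other cells in the results was not tested.

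Several array measures moved with the groups. The ratio of the poly-A spike signal, from RNA added to the sample, to the hybridization control signal was 0.234 to 0.579 in fertilized eggs and 0.0522 to 0.0866 in egg cells. The 18S ribosomal RNA probe sets read 2516 to 4738 in fertilized eggs and 15911 to 25697 in egg cells. Neither pair of ranges overlapped. Control genes gave a 3′ over 5′ signal ratio, a sign of transcript truncation, of 6.32 to 8.62 on the log2 scale in fertilized eggs and of 5.996 to 6.46 in egg cells, and its highest value was that of fertilized egg replicate 3. Correlations with the other arrays of the group were 0.883 to 0.913 in fertilized eggs and 0.947 to 0.959 in egg cells. Estimated array weights, which are low where an array departs from its group, were lowest for fertilized egg replicate 3 (0.309) and, among egg cells, for replicate 2 (0.634).

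Of 57194 rice probe sets, the 28597 with a mean signal at or above the median of 51.4 were tested with limma on log2(signal + 15), which understates the change of dim probe sets. At an adjusted p below 0.05, 159 probe sets (0.556%) passed: 47 were higher in fertilized eggs (0.164%) and 112 were lower (0.392%). An unadjusted p below 0.05 was reached by 5185 probe sets (18.1%). The folds were 2.88 to 105.9 with a median of 9.60 for the higher probe sets, and 2.61 to 21.8 with a median of 4.67 for the lower ones. Per gene, each represented by its brightest kept probe set, 43 of 15444 genes were higher (0.278%) and 36 were lower (0.233%). The median log2 change over these genes was 0.01, and 7862 of them lay above 0. All 3 fertilized egg arrays lay above all 3 egg cell arrays for 2188 genes (14.2%) and below them for 1882 (12.2%).

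The change was not even along the signal range. Of the 322 probe sets with a mean log2 signal of 14 or more, 293 lay above 0 (91.0%), with a median log2 change of 0.60. The 12493 below a mean of 8 had a median of 0.28, and the 7439 between 8 and 10 one of -0.08. After quantile normalization, which gives all arrays the same distribution, the median of the brightest 322 was 0.00 and 49.4% lay above 0. The members with values here that lie in that bright range are JAZ1, JAZ10, HSP81-3, RPS21, RPS27AA, GOS2, TCTP, Osr40c1, GRXC6, EL2, AGO1B, AGO4A, EXPB9, EXPB4, ARF, TubA, TUB5, UBQ1, UBQ6 and Hox16, whose changes stand beside a median of 0.60.

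The number of calls depended on the model. With limma's variance prior held constant instead of following signal, no probe set passed, although 4838 had an unadjusted p below 0.05 in that fit and the adjusted p of the 32 genes named here ran from 0.057 to 0.171. Leaving out 1 array at a time gave 42 to 105 calls, the fewest without egg cell replicate 3 and the most without egg cell replicate 2.

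**Figure D1:**
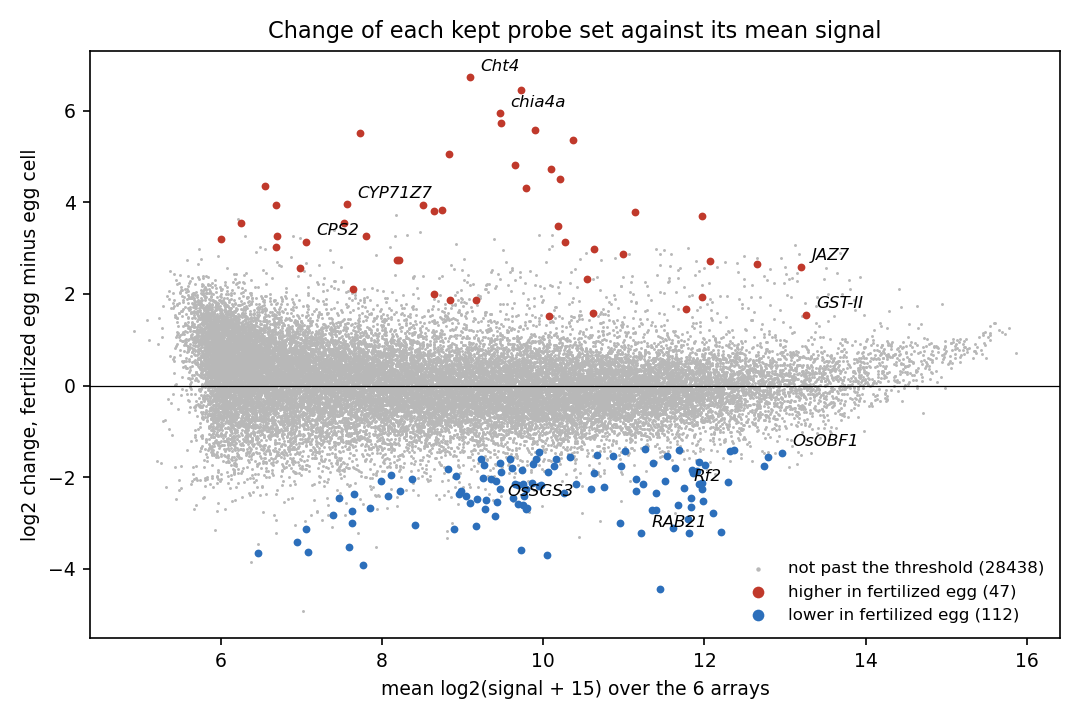
Log2 change of each tested probe set, fertilized egg minus egg cell, against its mean log2(signal + 15) over the 6 arrays. The 47 probe sets past the threshold and higher in fertilized eggs are red, the 112 lower ones are blue, the others are grey, and the largest rises exceed the largest falls. At a mean of 14 or more the grey points lie mostly above 0, with a median of 0.60.

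Among genes with an informative name, the largest rises were in transcripts of defence proteins. Of 16 kept genes of the chitinase and pathogenesis-related (PR) list, 4 were higher in fertilized eggs (all genes, 0.278%) and 0 were lower. The 4 were Cht4, chia4a and Cht2, chitinases that cut the chitin of fungal walls, and PBZ1, a PR10 protein first found in rice treated with probenazole. The list did not move as a whole: 10 of the 16 lay above 0, the median log2 change was 0.36, and 6 were without overlap above and 1 below the egg cell arrays (all genes, 14.2% above and 12.2% below). With the 3′ to 5′ ratio as a covariate the same 4 genes passed. With the spike ratio only chia4a did (adjusted p = 0.0719 for Cht4, 0.0513 for PBZ1 and 0.0943 for Cht2, limma).

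Cht4 read 2419.7, 4529 and 15848 in fertilized eggs and 31.0, 74.8 and 20.8 in egg cells. Every fertilized egg array was far above every egg cell array, and fertilized egg replicate 3 was the highest. Its egg cell mean of 42.2 was under the 51.4 needed to be kept, so Cht4 was kept only through its fertilized egg values. The log2 change was 6.73 ± 0.62 SE, a fold of 106 (adjusted p = 0.0026, limma). For chia4a the signal was 4912, 2747 and 12457 in fertilized eggs and 129, 45.0 and 69.3 in egg cells. Here too the groups were wide apart, with a log2 change of 5.94 ± 0.53 SE and a fold of 61.5 (adjusted p = 0.0026, limma). PBZ1 read 3099.8, 4309.8 and 13138 in fertilized eggs and 338, 135 and 165 in egg cells. Its groups did not overlap and its log2 change was 4.73 ± 0.52 SE, a fold of 26.5 (adjusted p = 0.00505, limma). These 3 genes passed the threshold whichever single array was left out, but the size of the change depended on the array. Without fertilized egg replicate 3 the log2 change was 5.975 for Cht4, 5.36 for chia4a and 4.11 for PBZ1, and without replicate 1 it was 7.33 for Cht4. With an offset of 50 it was 5.98 for Cht4.

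Cht2 read 1021, 827 and 3812 in fertilized eggs and 51.5, 152 and 94.2 in egg cells. The arrays separated by group, with fertilized egg replicate 3 again highest (log2 change 3.81 ± 0.57 SE, 14.02-fold, adjusted p = 0.0254, limma). The call was lost without egg cell replicate 1, egg cell replicate 3 or fertilized egg replicate 1 (adjusted p = 0.0603 to 0.0747, limma), and without fertilized egg replicate 3 the log2 change was 3.13. The 2 dimmer probe sets of Cht2 had log2 changes of 2.41 ± 0.62 SE (adjusted p = 0.11, limma) and 0.37. Another chitinase of the list, CH16, read 1145, 573 and 2100.4 in fertilized eggs and 26.4, 165 and 169 in egg cells, without overlap, but did not pass (log2 change 3.35 ± 0.63 SE, adjusted p = 0.054, limma). The opposite extreme of the list was Chia1d, with 2.62, 9.04 and 15.5 in fertilized eggs and 284, 10062 and 105 in egg cells. Its fertilized egg arrays were all at very low signal, its egg cell arrays spread widely, and it did not pass (log2 change -4.92 ± 1.29 SE, adjusted p = 0.113, limma). Chia1d was kept only through its egg cell values.

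**Figure D2:**
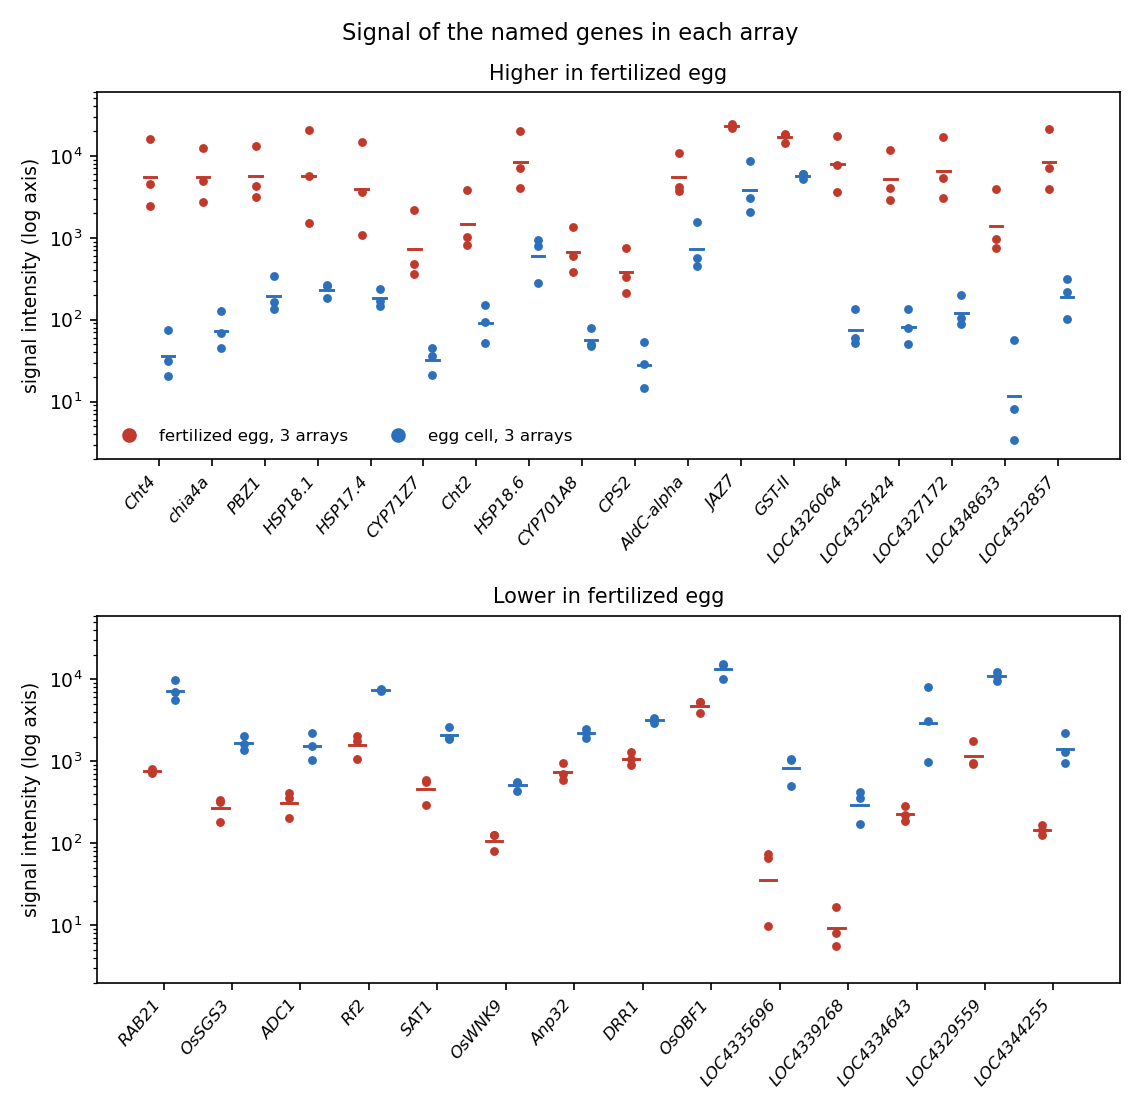
Signal intensity (log axis) of the named genes in each array, with fertilized egg arrays in red on the left of each pair, egg cell arrays in blue on the right, and bars at the geometric means. The upper panel holds the 18 genes that were higher and the lower panel the 14 that were lower in fertilized eggs. No pair of groups overlaps, because these genes were named only where the groups did not overlap. The rises reach 106-fold for Cht4 with all 6 arrays, and in many of the risen genes 1 fertilized egg array stands above the other 2.

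Some transcripts of diterpenoid phytoalexin synthesis were also higher. These antifungal compounds of rice, the phytocassanes and momilactones among them, are made from a diphosphate precursor by cyclases of the CPS and KSL families and oxidized by cytochromes P450, and most of the genes lie in clusters. Of 17 genes of the list on the array, 10 were kept, 3 were higher (all genes, 0.278%) and 0 were lower. The median log2 change was 2.23 (2.17 after quantile normalization), 9 of the 10 lay above 0, and 7 were above the egg cell arrays without overlap (all genes, 14.2%). CYP71Z7, CPS2, CYP76M5, KSL5, OsMAS and CYP99A2 had egg cell means under the 51.4 needed to be kept. They were kept only through their fertilized egg values, which pushes the median and these counts upward.

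CYP71Z7, a P450 of this pathway, read 481, 363 and 2192 in fertilized eggs and 35.7, 20.9 and 44.9 in egg cells. Its log2 change was 3.96 ± 0.62 SE, a fold of 15.6 (adjusted p = 0.0297, limma). CPS2, the cyclase that makes the first ring system on the way to phytocassanes, read 334, 213 and 753 in fertilized eggs and 28.6, 53.4 and 14.9 in egg cells. In both genes the groups were apart and fertilized egg replicate 3 was highest. The log2 change of CPS2 was 3.14 ± 0.55 SE, a fold of 8.82 (adjusted p = 0.0418, limma). CYP701A8, a P450 related to the gibberellin enzyme kaurene oxidase, read 603, 379 and 1342 in fertilized eggs and 47.2, 49.98 and 78.9 in egg cells. It too separated the groups (log2 change 3.26 ± 0.48 SE, 9.55-fold, adjusted p = 0.0243, limma).

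These 3 calls depended on single arrays. CYP71Z7 and CYP701A8 were lost without any 1 egg cell array or without fertilized egg replicate 1, with adjusted p in limma of 0.0616 to 0.0812 for CYP71Z7 and 0.0514 to 0.0841 for CYP701A8. CPS2 was lost whichever array was left out (adjusted p = 0.0514 to 0.145, limma). Without fertilized egg replicate 3 the log2 change of CYP71Z7 was 3.18. With an offset of 50 it was 3.25 for CYP71Z7 and 2.42 for CPS2. The list had 0 to 2 calls when single arrays were left out, and 0 with the 3′ to 5′ ratio as a covariate, where its median was 2.12. With the spike ratio as a covariate it had 1, CYP71Z7 (adjusted p = 0.0457, limma).

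On chromosome 2, 8 genes of the list lie within 14 consecutive genes of the RefSeq annotation, and CYP71Z7 and CPS2 are next to each other there. DTC1 and CYP71Z6 were not kept. All 6 that were kept lay above 0, with log2 changes of 0.91 to 3.96, and 2 passed (all genes, 0.278% higher). Of these 6, CYP71Z7, CPS2, CYP76M5 and KSL5 were kept only through their fertilized egg values, which favours rises. Among those that did not pass, CYP76M5, another P450, read 205, 65.7 and 157 in fertilized eggs and 12.1, 27.0 and 35.9 in egg cells (log2 change 1.91 ± 0.59 SE, adjusted p = 0.154, limma). KSL5, a cyclase of the second ring-forming step, overlapped between the groups, with 149, 267 and 9.62 in fertilized eggs and 52.5, 20.4 and 26.7 in egg cells (log2 change 1.17 ± 0.86 SE, adjusted p = 0.488, limma). On chromosome 4, 5 genes lie within 9 consecutive genes, of which 3 were kept and 0 passed. OsMAS, the momilactone A synthase of that group, read 136, 72.1 and 236 in fertilized eggs and was almost without signal in egg cells at 1.79, 6.60 and 3.29 (log2 change 2.98 ± 0.65 SE, adjusted p = 0.0843, limma). CYP99A2, a P450 of the same group, read 289, 122 and 669 in fertilized eggs and 13.6, 36.1 and 81.9 in egg cells (log2 change 2.55 ± 0.66 SE, adjusted p = 0.111, limma). CYP99A3, a near copy of CYP99A2, did not separate the groups (log2 change -0.20, adjusted p = 0.907, limma).

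Jasmonate, the hormone of wounding and defence, acts by the removal of JAZ repressors, whose genes are themselves induced by jasmonate. Of 29 kept genes of jasmonate synthesis and signalling, 1 was higher (all genes, 0.278%) and 0 were lower. In the list, 25 genes lay above 0 with a median log2 change of 0.63, and 7 were without overlap above the egg cell arrays (all genes, 14.2%). The gene that passed was JAZ7, which read 24372, 21918 and 22939 in fertilized eggs and 2089, 8701 and 3025 in egg cells. The fertilized egg arrays were close together and the egg cell arrays were not, replicate 2 being the highest. The log2 change was 2.59 ± 0.43 SE, a fold of 6.04 (adjusted p = 0.0353, limma), and the call was lost without any single array other than egg cell replicate 2 (adjusted p = 0.0696 to 0.125, limma). Without egg cell replicate 2 the log2 change of JAZ7 was 3.19.

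All 12 kept JAZ genes lay above 0, with log2 changes of 0.15 to 2.59 and a median of 1.13. JAZ11 read 13475, 11912 and 11278 in fertilized eggs and 1291, 12594 and 1169.9 in egg cells. JAZ9 read 7073, 9656 and 8035 in fertilized eggs and 1209.9, 10312 and 987 in egg cells. In both, egg cell replicate 2 lay among the fertilized egg arrays or above them and the other egg cell arrays far below, and neither passed (adjusted p = 0.174 for JAZ11 and 0.223 for JAZ9, limma). JAZ1, with the highest signal of the list, read 40017, 24414 and 35660.5 in fertilized eggs and 17209, 20578 and 16799 in egg cells, with the groups apart (log2 change 0.85 ± 0.24 SE, adjusted p = 0.123, limma). JAZ10 read 28711, 19982 and 24453 in fertilized eggs and 8095, 27727 and 9042 in egg cells, and egg cell replicate 2 overlapped the fertilized egg arrays (log2 change 0.93 ± 0.41 SE, adjusted p = 0.271, limma).

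The 11 kept genes of jasmonate synthesis had a median of 0.53, with 10 above 0 and 0 past the threshold (all genes, 0.278% higher and 0.233% lower). The synthesis gene aoc, which encodes allene oxide cyclase, read 20744, 14301 and 17063 in fertilized eggs and 4567, 11840.2 and 5469.9 in egg cells, apart but not past the threshold (log2 change 1.36 ± 0.34 SE, adjusted p = 0.108, limma). The 6 genes of conjugation, receptors and other roles had a median of -0.25. Of these, COI1B, a receptor subunit, read 1955, 1005 and 533 in fertilized eggs and 3286, 3182 and 5350.1 in egg cells, with the fertilized egg arrays all lower (log2 change -1.89 ± 0.43 SE, adjusted p = 0.091, limma). Without egg cell replicate 2, 5 genes of the jasmonate list were higher past the threshold, namely JAZ7, JAZ11, JAZ9, aoc and JAZ12. With the spike ratio as a covariate the list's median was -0.67, of the opposite sign. The ranges of that ratio do not overlap between the groups, so the fit can hardly separate it from the group.

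The phenylpropanoid pathway leads from phenylalanine to lignin, flavonoids and defence phenolics. Of its 19 kept genes 0 passed in either direction (all genes, 0.278% higher and 0.233% lower), 10 lay above 0 and the median was 0.03. ROMT-17, a methyltransferase and the member with the highest signal, read 5761, 6851 and 4473 in fertilized eggs and 4873, 7216 and 8314 in egg cells, and the groups overlapped (log2 change -0.24 ± 0.27 SE, adjusted p = 0.656, limma). The next, PAL, which encodes the entry enzyme phenylalanine ammonia-lyase, read 3101, 5447 and 2752 in fertilized eggs and 4996, 7896 and 9966 in egg cells. Its fertilized egg values were mostly lower, with overlap (log2 change -1.02 ± 0.34 SE, adjusted p = 0.167, limma). PAL06 of the same enzyme family went the other way, with 1019, 1838 and 1241 in fertilized eggs and 194, 1362 and 73.1 in egg cells, where egg cell replicate 2 again lay among the fertilized eggs (log2 change 2.19 ± 0.80 SE, adjusted p = 0.199, limma).

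WRKY factors, regulators of many defence genes, had 6 kept members, of which 0 passed (all genes, 0.278% higher and 0.233% lower). Of the 6, 4 lay above 0, and the median was 0.87. OsWRKY71 read 4437, 5095 and 2633 in fertilized eggs and 1537, 7103 and 1691 in egg cells (log2 change 0.56 ± 0.53 SE, adjusted p = 0.589, limma). OsWRKY24 read 635, 636 and 466 in fertilized eggs and 159, 837 and 64.4 in egg cells (log2 change 1.37 ± 0.70 SE, adjusted p = 0.326, limma). In both, egg cell replicate 2 was the highest of the 6 arrays. With the spike ratio as a covariate the median of the list was -1.63, against 0.87 without it, and that fit can hardly separate the ratio from the group.

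The median difference of a list from the mean of the egg cell arrays showed the same array standing out. For jasmonate genes it was 0.92, 0.52 and 0.58 in the fertilized egg arrays and -0.54, 0.81 and -0.30 in the egg cell arrays. For phenylpropanoid genes it was 0.71, 0.18 and -0.38 in fertilized eggs and -0.44, 0.76 and -0.32 in egg cells. For WRKY factors it was 1.04, 0.98 and 1.02 in fertilized eggs and -0.68, 1.16 and -0.39 in egg cells. The chitinase and PR list had 0.83, -0.07 and 0.68 in fertilized eggs and -0.81, 0.73 and -0.03 in egg cells. In these lists egg cell replicate 2 was as high as fertilized egg arrays. The same array had the highest sum of ovule wall markers, 94377, and their part in these lists was not tested. For diterpenoid genes, most of them kept only through their fertilized egg values, it was 2.53, 1.80 and 2.93 in fertilized eggs. In egg cells it was -0.19, 0.16 and 0.10, with no egg cell array near a fertilized egg array.

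**Figure D3:**
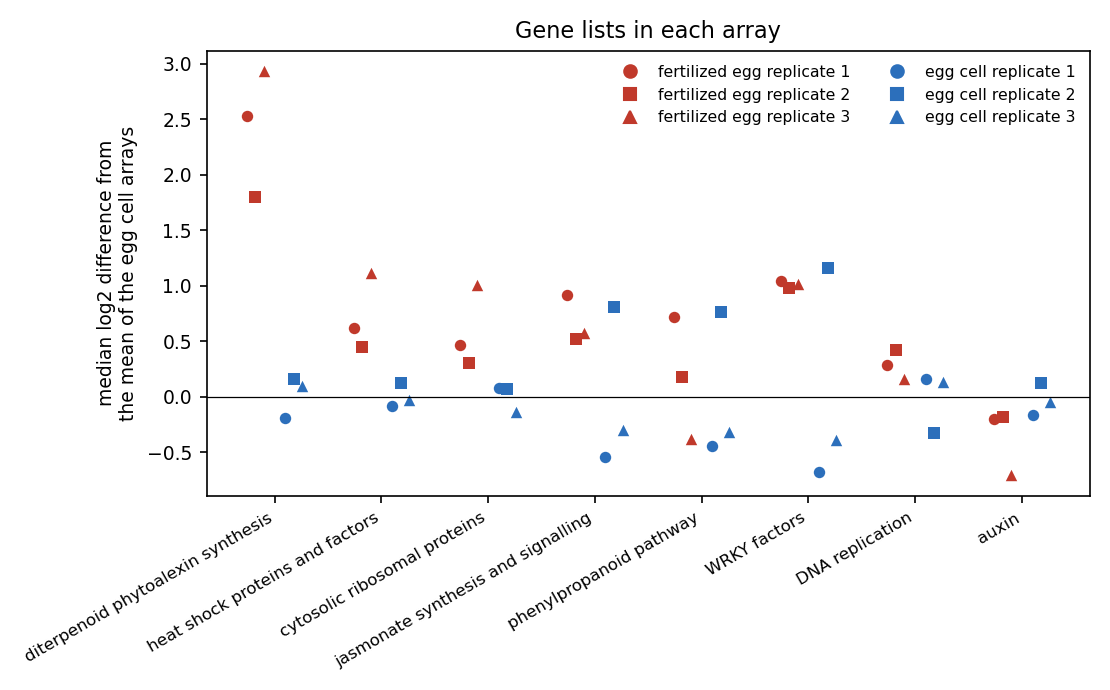
Median log2 difference from the mean of the egg cell arrays over the genes of 8 lists, one point per array, with fertilized egg replicates in red on the left and egg cell replicates in blue on the right. Egg cell replicate 2 (blue square) lies at 0.81 for jasmonate genes and 1.16 for WRKY factors, level with the fertilized egg arrays. For diterpenoid and heat shock genes the groups are apart, and most diterpenoid genes were kept only through their fertilized egg values.

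Small heat shock proteins, which bind unfolding proteins and keep them from aggregating, were the other group with large folds. Of 50 kept genes of the heat shock list, 3 were higher (all genes, 0.278%) and 0 were lower; 40 lay above 0, the median log2 change was 0.79 (0.59 after quantile normalization), and 21 were above the egg cell arrays without overlap (all genes, 14.2%). All 3 genes that passed were small heat shock proteins, a class in which 17 of 18 lay above 0 with a median of 1.63 and a range of -1.41 to 4.51.

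HSP18.1 read 5729, 1520.3 and 20439.5 in fertilized eggs and 255, 267 and 184 in egg cells. The fertilized egg arrays were far apart from each other and all above the egg cell arrays (log2 change 4.51 ± 0.73 SE, 22.9-fold, adjusted p = 0.032, limma). HSP17.4, the gene next to it on chromosome 3, read 3645, 1091 and 14892 in fertilized eggs and 148, 240.3 and 169.8 in egg cells, in the same order of fertilized egg arrays (log2 change 4.31 ± 0.74 SE, 19.9-fold, adjusted p = 0.0378, limma). HSP18.6 read 7099, 4074 and 20107 in fertilized eggs and 282, 787 and 933 in egg cells, also without overlap (log2 change 3.78 ± 0.58 SE, 13.7-fold, adjusted p = 0.0289, limma).

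HSP18.1 and HSP17.4 lost the call without any 1 egg cell array or without fertilized egg replicate 1 (adjusted p = 0.0616 to 0.101 for HSP18.1 and 0.0639 to 0.111 for HSP17.4, limma). HSP18.6 lost it without egg cell replicate 1 (adjusted p = 0.0563, limma) or fertilized egg replicate 1 (adjusted p = 0.0869, limma). Without fertilized egg replicate 3 the log2 change was 3.59 for HSP18.1, 3.35 for HSP17.4 and 3.15 for HSP18.6, and without replicate 2 it was 5.45 for HSP18.1 and 5.23 for HSP17.4. The second probe sets read the same direction, with log2 changes of 3.20 ± 0.69 SE for HSP18.1 (adjusted p = 0.0824, limma) and 3.28 ± 0.64 SE for HSP18.6 (adjusted p = 0.0588, limma). Small heat shock genes resemble each other in sequence, and how far their probe sets share signal was not tested. The exception in the class was HSP18.8, with 2548, 2758 and 1432 in fertilized eggs and 3952, 8224 and 5838 in egg cells, lower without overlap but not past the threshold (log2 change -1.41 ± 0.34 SE, adjusted p = 0.0995, limma).

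The larger chaperones and the factors of the heat shock response had smaller differences. Of 8 kept genes for HSP90 and other large chaperones, 0 passed (all genes, 0.278% higher and 0.233% lower), 7 lay above 0 and the median was 0.79. HSP81-3, an HSP90 protein, read 83773, 46148 and 127444 in fertilized eggs and 31021, 41100 and 30276 in egg cells, apart by a narrow margin in the range where the median was 0.60 (log2 change 1.22 ± 0.33 SE, adjusted p = 0.12, limma). CLPB1, the disaggregase that acts with small heat shock proteins, read 2084, 896 and 3826 in fertilized eggs and 537, 439.9 and 594 in egg cells (log2 change 1.86 ± 0.46 SE, adjusted p = 0.104, limma). Among 19 heat shock transcription factors 0 passed, beside the same shares over all genes, 13 lay above 0 and the median was 0.20. HSF11 of this class came nearest to the threshold, with 925, 964 and 1643 in fertilized eggs and 69.1, 222 and 310.3 in egg cells (log2 change 2.63 ± 0.49 SE, adjusted p = 0.0529, limma). The 5 DNAJ co-chaperones had a median of 0.53 and 0 past the threshold.

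In the fertilized egg arrays the median difference of the heat shock list was 0.62, 0.45 and 1.12, against -0.08, 0.13 and -0.03 in the egg cell arrays, so replicate 3 was the highest. That replicate was the highest of the fertilized egg arrays for 41 of the 47 probe sets called higher, while over all tested probe sets it was highest for 11921 of 28597. It also had the highest 3′ to 5′ ratio and the highest summed signal of the endosperm markers, as given above. With the 3′ to 5′ ratio as a covariate, 17 probe sets were higher and 43 lower. In that fit 0 heat shock genes passed, the median of the list was 0.43, and HSP18.1 had a log2 change of 3.34 (adjusted p = 0.108, limma). The fit with the spike ratio also had 0 heat shock genes past the threshold, with a list median of 1.66. The part of the endosperm markers in the rises was not tested. Leaving out the replicate gave 26 higher and 71 lower calls. Between 0 and 4 heat shock genes passed when single arrays were left out.

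**Figure D4:**
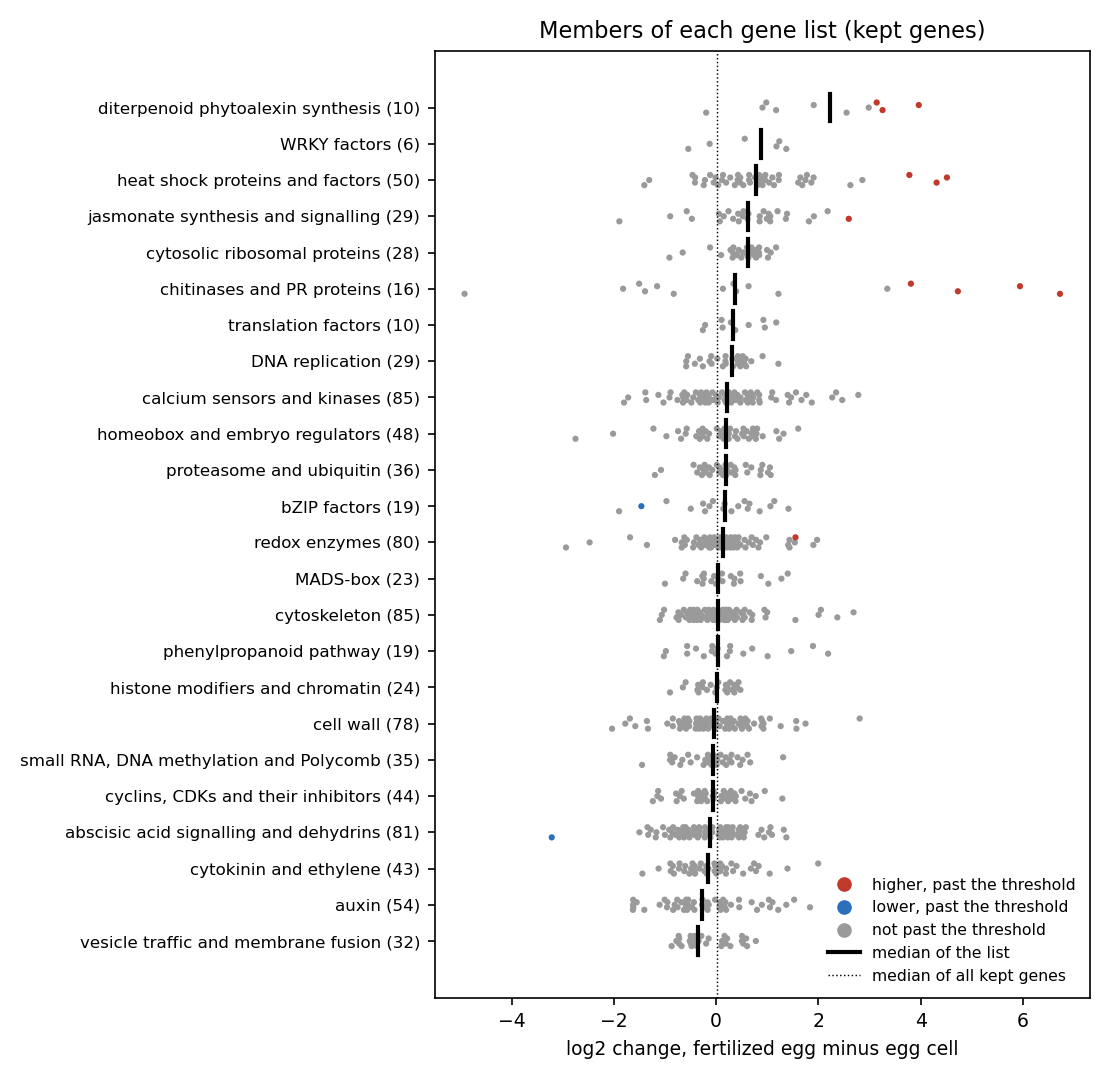
Log2 change, fertilized egg minus egg cell, of the kept members of 24 gene lists (number of members in brackets), with the median of each list as a bar and the median of all kept genes as a dotted line. Diterpenoid genes have the highest median, 2.23, with most members kept only through their fertilized egg signal. Points past the threshold are red where higher and blue where lower, and most lists have none.

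A pair of metabolic and detoxifying enzymes was also higher. AldC-alpha, a fructose-bisphosphate aldolase of glycolysis, read 4206, 3669.7 and 10793 in fertilized eggs and 1546, 453 and 572 in egg cells. The groups were apart, with fertilized egg replicate 3 and egg cell replicate 1 each the highest of its group (log2 change 2.87 ± 0.51 SE, 7.32-fold, adjusted p = 0.0424, limma). GST-II, a glutathione S-transferase, which couples glutathione to toxic compounds, read 14331, 17941 and 18353 in fertilized eggs and 6031, 5962 and 5182 in egg cells. Here both groups were tight (log2 change 1.55 ± 0.21 SE, 2.93-fold, adjusted p = 0.0162, limma). The aldolase call was lost without any single array other than egg cell replicate 1 (adjusted p = 0.0783 to 0.142, limma). That of GST-II was lost without egg cell replicate 1, egg cell replicate 3 or fertilized egg replicate 2 (adjusted p = 0.0597 to 0.0954, limma).

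GST-II was the only one of 80 kept redox enzymes that passed (all genes, 0.278% higher and 0.233% lower). The median of that list was 0.14, and 19 members were above and 5 below the egg cell arrays without overlap (all genes, 14.2% above and 12.2% below). GRXC6, a glutaredoxin and its member with the highest signal, read 33816, 23872 and 40901 in fertilized eggs and 24465, 25234 and 25028 in egg cells, and the groups overlapped (log2 change 0.36 ± 0.23 SE, adjusted p = 0.42, limma).

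The 5 risen genes with the largest folds among those without an informative name were LOC4326064, LOC4325424 and LOC4327172 on chromosome 1, LOC4348633 on chromosome 10 and LOC4352857 on chromosome 12. LOC4326064 read 7788, 3665 and 17198 in fertilized eggs and 136, 51.9 and 59.1 in egg cells (log2 change 6.44 ± 0.53 SE, 87.1-fold, adjusted p = 0.0026, limma). LOC4348633 read 956, 743 and 3885 in fertilized eggs and 3.45, 56.8 and 8.09 in egg cells (log2 change 5.51 ± 0.69 SE, adjusted p = 0.00862, limma). Its egg cell mean of 22.8 was under the 51.4 needed to be kept, so it was kept only through its fertilized egg values. With these low egg cell values, the log2 change was 6.72 with an offset of 1 and 4.40 with 50. In both, fertilized egg replicate 3 was the highest array and replicate 2 the lowest of its group. The folds of the other 3 were 53.0 for LOC4325424, 47.8 for LOC4327172 and 41.0 for LOC4352857, with adjusted p in limma of 0.0026, 0.0038 and 0.00489 in the same order. All 5 passed whichever array was left out. Without fertilized egg replicate 3 the log2 change was 5.14 for LOC4325424, 4.89 for LOC4327172, 4.78 for LOC4348633 and 4.69 for LOC4352857, and without egg cell replicate 2 it was 6.11 for LOC4348633.

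Transcripts of cytosolic ribosomal proteins, the structural part of the translation machinery, had log2 changes close to those of other bright probe sets. Of the 28 kept genes, 17 had a mean log2 signal of 14 or more, where the median of all probe sets was 0.60. Of these 28 kept genes, 0 passed in either direction (all genes, 0.278% higher and 0.233% lower), 25 lay above 0 and the median log2 change was 0.62. The 3 fertilized egg arrays were all above the 3 egg cell arrays for 19 of the 28 and all below for 1 (all genes, 14.2% above and 12.2% below). RPS21 read 63135, 38334 and 125799 in fertilized eggs and 31296, 38952 and 31494 in egg cells, with fertilized egg replicate 2 inside the egg cell range (log2 change 1.00 ± 0.36 SE, adjusted p = 0.2, limma). RPS27AA, a ubiquitin fusion, read 41750, 31427 and 93130 in fertilized eggs and 27724, 30838 and 28105 in egg cells, a narrow separation (log2 change 0.78 ± 0.35 SE, adjusted p = 0.268, limma). The member nearest the threshold was RPL7A-2, with 11051, 12642 and 16566 in fertilized eggs and 6763, 6173 and 4827 in egg cells (log2 change 1.17 ± 0.24 SE, adjusted p = 0.0734, limma). The median of the list was 0.47, 0.30 and 1.00 in the fertilized egg arrays and 0.08, 0.07 and -0.14 in the egg cell arrays. After quantile normalization the difference between the groups was 0.22, and with the 3′ to 5′ ratio as a covariate 0.34.

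Translation factors had 10 kept genes, with 0 past the threshold (all genes, 0.278% higher and 0.233% lower). Of the 10, 8 lay above 0, the median was 0.33, and 3 had a mean log2 signal of 14 or more. GOS2, the rice homologue of the initiation factor eIF1, read 69529, 39910.2 and 116242 in fertilized eggs and 27233, 38403 and 26788 in egg cells (log2 change 1.17 ± 0.35 SE, adjusted p = 0.141, limma). TCTP, the translationally controlled tumour protein, read 58092, 38249.9 and 110212 in fertilized eggs and 30712, 36796 and 31693 in egg cells (log2 change 0.92 ± 0.33 SE, adjusted p = 0.198, limma). Both were above the egg cell arrays in all fertilized egg arrays, replicate 2 only just.

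Among the transcripts that fell, RAB21, a dehydrin that accumulates in drying seeds and under abscisic acid, had the steepest loss of those with an informative name. It read 720.1, 807 and 768 in fertilized eggs and 9693, 6948 and 5619 in egg cells. The fertilized egg arrays were almost alike and all far below the egg cells (log2 change -3.22 ± 0.27 SE, 9.30-fold lower, adjusted p = 0.0026, limma). A second probe set of the gene, with group means of 377 in fertilized eggs and 1715 in egg cells, fell too (log2 change -2.14 ± 0.33 SE, adjusted p = 0.0295, limma). RAB21 passed whichever array was left out.

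No other gene of abscisic acid signalling passed the threshold. Of 81 kept genes, 1, RAB21 itself, was lower (all genes, 0.233%) and 0 were higher. Of the list, 38 lay above 0, the median was -0.11, and 12 were above and 18 below the egg cell arrays without overlap (all genes, 14.2% above and 12.2% below). Osr40c1, an abscisic acid-responsive protein, read 45539, 31186 and 74300 in fertilized eggs and 22590, 28965 and 22806 in egg cells (log2 change 0.94 ± 0.30 SE, adjusted p = 0.159, limma). Dhn1, another dehydrin, read 8211, 16810 and 7707 in fertilized eggs and 14214, 18878 and 13776 in egg cells (log2 change -0.60 ± 0.31 SE, adjusted p = 0.332, limma). The first was above the egg cells in every fertilized egg array and the second overlapped them.

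Rf2, a restorer of pollen fertility in lines with a sterilizing cytoplasm, read 2013, 1074 and 1778 in fertilized eggs and 7325, 7288 and 7575 in egg cells. The egg cell arrays were nearly equal and the fertilized eggs all far lower (log2 change -2.23 ± 0.28 SE, 4.68-fold lower, adjusted p = 0.00857, limma). Rf2 passed whichever array was left out. OsOBF1, a bZIP transcription factor, read 5258, 5343 and 3900.0 in fertilized eggs and 10116, 14967 and 15275 in egg cells, apart (log2 change -1.46 ± 0.25 SE, 2.76-fold lower, adjusted p = 0.0386, limma). DRR1, also known as LTI6A, a small membrane protein induced by cold, read 1055, 1295 and 909 in fertilized eggs and 3196, 3382 and 2937 in egg cells, with both groups tight (log2 change -1.55 ± 0.25 SE, 2.92-fold lower, adjusted p = 0.0324, limma). The calls of OsOBF1 and DRR1 were lost whichever array was left out (adjusted p = 0.0592 to 0.188 for OsOBF1 and 0.0541 to 0.125 for DRR1, limma). OsOBF1 was the only one of 19 kept bZIP factors that passed (all genes, 0.278% higher and 0.233% lower), and their median was 0.17. The next by signal, TRAB1, an activator of abscisic acid-responsive genes, was at -0.22 ± 0.22 SE (adjusted p = 0.616, limma).

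For several genes that fell, the probe set that passed was not the brightest of its gene. OsSGS3, a protein of the trans-acting small RNA pathway, read 337, 319.6 and 183 in fertilized eggs and 2021, 1641 and 1355 in egg cells on the probe set that passed (log2 change -2.54 ± 0.33 SE, 5.83-fold lower, adjusted p = 0.0109, limma). Its brighter probe set, with means of 9289.6 in fertilized eggs and 7717 in egg cells, had a log2 change of 0.26 ± 0.21 SE. ADC1, an arginine decarboxylase of polyamine synthesis, read 204, 352 and 411 in fertilized eggs and 1025, 1555 and 2226 in egg cells (log2 change -2.25 ± 0.38 SE, 4.74-fold lower, adjusted p = 0.0353, limma). On its brighter probe set the means were 15446 in fertilized eggs and 14258 in egg cells, a log2 change of 0.10 ± 0.23 SE. In neither gene did the brighter probe set follow the dimmer one.

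SAT1 read 584, 559.8 and 291 in fertilized eggs and 1868, 2646 and 1918 in egg cells (log2 change -2.17 ± 0.33 SE, 4.51-fold lower, adjusted p = 0.0287, limma). Its brighter probe set, with means of 10239 in fertilized eggs and 12992 in egg cells, had a log2 change of -0.35 ± 0.23 SE. OsWNK9, a kinase of the WNK family, read 80.2, 125 and 125 in fertilized eggs and 561, 536 and 431 in egg cells (log2 change -2.08 ± 0.35 SE, 4.23-fold lower, adjusted p = 0.0353, limma). Its brighter probe set had the same direction but did not pass (log2 change -1.12 ± 0.40 SE, adjusted p = 0.194, limma). Anp32, an acidic nuclear phosphoprotein, read 590.1, 961 and 695 in fertilized eggs and 1930.1, 2209 and 2472 in egg cells (log2 change -1.56 ± 0.28 SE, 2.95-fold lower, adjusted p = 0.0433, limma). Its other probe sets gave log2 changes of -0.16, -0.95 and 0.17, so its probe sets disagreed.

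The calls of ADC1, SAT1 and OsWNK9 were lost without any single array other than fertilized egg replicate 3, with adjusted p in limma of 0.0527 to 0.149 for ADC1, 0.0573 to 0.0933 for SAT1 and 0.0815 to 0.140 for OsWNK9. OsSGS3 lost its call without egg cell replicate 1 (adjusted p = 0.0563, limma), and Anp32 whichever array was left out (adjusted p = 0.0724 to 0.21, limma).

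Across the array, 28 genes with a call had more than 1 kept probe set. The brightest probe set had the call in 5 of 5 such genes that were higher, and in 7 of 23 that were lower. In the other 16 lower genes the brightest probe set did not pass, 13 had the same direction, and their log2 changes ran from -1.19 to 0.26 with a median of -0.29. Probe sets without a single annotated gene were 4 of the 47 higher ones (8.51%) and 57 of the 112 lower ones (50.9%), against 10431 of 28597 tested (36.5%). Probe sets whose name marks probes shared among transcripts were 5 of 47 (10.6%) and 36 of 112 (32.1%), against 5652 of all tested (19.8%). Differences in transcript ends, splice forms and probe quality were not tested here.

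**Figure D5:**
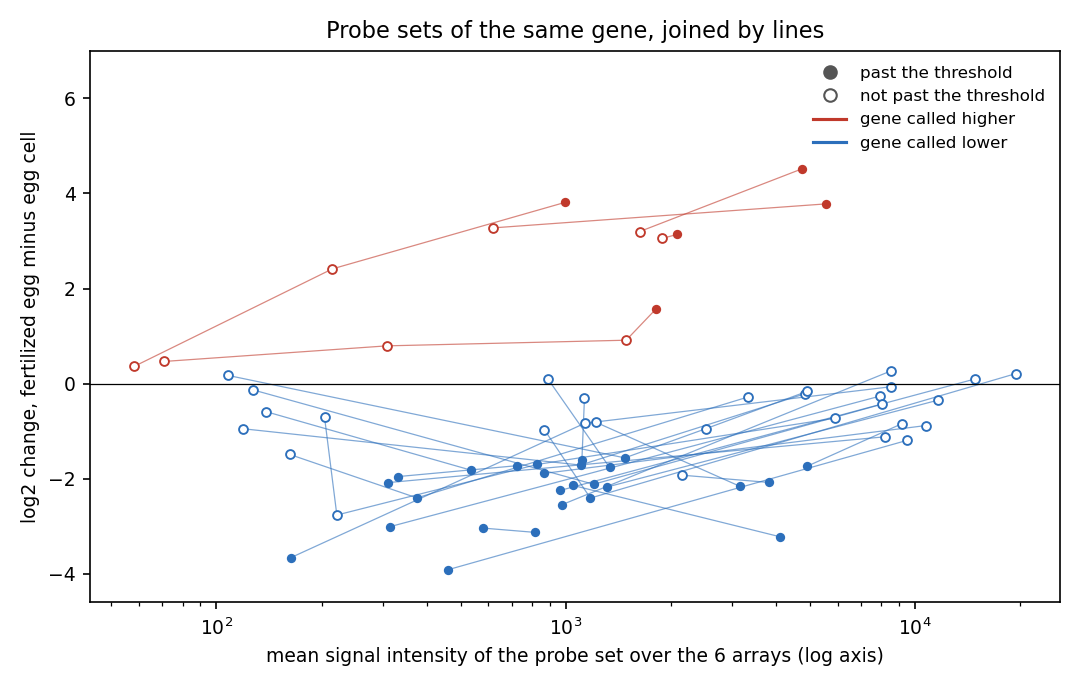
Log2 change, fertilized egg minus egg cell, against mean signal over the 6 arrays (log axis) for the 28 genes with a call and more than 1 kept probe set; lines join the probe sets of a gene and filled points passed the threshold. Red lines, genes called higher, end in a filled point at their brightest probe set, while 16 of 23 blue lines, genes called lower, end in an open point, at a median of -0.29.

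The 5 fallen genes with the largest folds among those without an informative name were LOC4335696 on chromosome 4, LOC4339268 on chromosome 5, LOC4334643 on chromosome 3, LOC4329559 on chromosome 2 and LOC4344255 on chromosome 7. LOC4329559 read 946, 1759.7 and 920.3 in fertilized eggs and 9626, 12442 and 10844 in egg cells (log2 change -3.22 ± 0.29 SE, 9.35-fold lower, adjusted p = 0.0026, limma). LOC4344255 read 127, 168 and 146 in fertilized eggs and 945, 1298 and 2205 in egg cells (log2 change -3.13 ± 0.36 SE, 8.73-fold lower, adjusted p = 0.00583, limma), and a second probe set of it passed as well, at -3.04. These 2 passed whichever array was left out. LOC4335696 had a fold of 15.045 (adjusted p = 0.0175, limma), but its brighter probe set was at -1.19 ± 0.26 SE and did not pass (adjusted p = 0.0824, limma). LOC4339268 read 5.60, 8.08 and 16.8 in fertilized eggs, values under or near the offset of 15, so the size of its fall is set by the offset: the log2 change was -4.86 with an offset of 1, -3.66 with 15 (adjusted p = 0.023, limma) and -2.54 with 50. Its brighter probe set was at -0.07. The probe sets that passed for LOC4335696 and LOC4339268 had fertilized egg means of 49.4 and 10.2, under the 51.4 needed to be kept. They were kept only through their egg cell values. LOC4334643 had a fold of 12.1, with egg cell arrays that spread from 973 to 8103 (adjusted p = 0.0386, limma). The calls of these 3 were lost without at least 1 of the arrays, LOC4335696 without egg cell replicates 1 or 3 (adjusted p = 0.0616 to 0.0874, limma), LOC4339268 without any array but fertilized egg replicate 3 (0.0573 to 0.102) and LOC4334643 without any but egg cell replicate 1 (0.0514 to 0.125). The log2 change of LOC4335696 was -3.32 without fertilized egg replicate 3 and -3.21 with an offset of 50. That of LOC4334643 was -4.38 without egg cell replicate 1 and -2.86 without replicate 2.

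Genes of the processes that follow fertilization had no call in their brightest probe sets, read against 0.278% of all genes higher and 0.233% lower. Cyclins, cyclin-dependent kinases and their inhibitors, which control cell division, had 44 kept genes with 19 above 0 and a median of -0.06. EL2, a cell cycle inhibitor, read 33098, 22690.3 and 33068 in fertilized eggs and 8735, 16998 and 11303 in egg cells, all higher (log2 change 1.29 ± 0.28 SE, adjusted p = 0.084, limma). SMR1, another cell cycle inhibitor, read 6663, 11654 and 5309 in fertilized eggs and 12237, 19860.5 and 18049.9 in egg cells, all lower (log2 change -1.14 ± 0.32 SE, adjusted p = 0.124, limma). The 29 kept genes of DNA replication had a median of 0.32, with 20 above 0. OsRPA14, a subunit of the single-strand binding protein RPA, read 8367, 8724 and 12061 in fertilized eggs and 7795, 5877 and 5785 in egg cells, and all 3 fertilized egg arrays were higher (log2 change 0.58 ± 0.24 SE, adjusted p = 0.248, limma). OsRPA32B, another subunit, was at 0.18 ± 0.23 SE (adjusted p = 0.699, limma).

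The 35 kept genes of small RNA pathways, DNA methylation and Polycomb repression had a median of -0.06, and the 24 of histone modification and chromatin a median of 0.03. AGO1B, which loads microRNAs, read 46631, 32503 and 20124 in fertilized eggs and 28981, 30494 and 28842 in egg cells, so the fertilized egg arrays lay on both sides of the egg cells (log2 change 0.09 ± 0.29 SE, adjusted p = 0.891, limma). AGO4A, of RNA-directed DNA methylation, was at 0.01 ± 0.24 SE (adjusted p = 0.989, limma). The chromatin members with the highest signal were ISW2-like, a remodeller, at 0.32 ± 0.21 SE (adjusted p = 0.436, limma), and ADA2, an adaptor of histone acetylation, at 0.22 ± 0.23 SE (adjusted p = 0.639, limma).

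Among hormone lists, the 54 kept auxin genes had a median of -0.27, with 21 above 0, and 7 above and 14 below the egg cell arrays without overlap (all genes, 14.2% above and 12.2% below). ARF22, an auxin response factor, read 11857, 10295 and 12542 in fertilized eggs and 13470.3, 14227 and 14185 in egg cells, lower throughout by a small margin (log2 change -0.28 ± 0.20 SE, adjusted p = 0.483, limma). IAA17, an auxin repressor, was at -0.84 ± 0.42 SE (adjusted p = 0.318, limma). The 43 genes of cytokinin and ethylene had a median of -0.15. EIL1, a regulator of the ethylene response, was at 0.19 ± 0.31 SE (adjusted p = 0.772, limma) and EREBP-1, an ethylene response factor, at -0.23 ± 0.20 SE (adjusted p = 0.567, limma).

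Calcium rises in the egg at gamete fusion in plants, and the list of calcium sensors and kinases had 85 kept genes with 50 above 0 and a median of 0.22. CML16, a calmodulin-like protein, read 22635, 20224 and 21908 in fertilized eggs and 10754, 16972 and 9509 in egg cells, higher throughout (log2 change 0.84 ± 0.25 SE, adjusted p = 0.141, limma). CPK29, a calcium-dependent kinase, read 17184, 10566 and 53388 in fertilized eggs and 7237, 1932 and 4065 in egg cells, also without overlap (log2 change 2.47 ± 0.59 SE, adjusted p = 0.096, limma). No gene of the list of gamete fusion proteins was matched on the array.

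Cell wall genes, of interest because the egg cell lays down a wall after fusion, had 78 kept members with 37 above 0 and a median of -0.04. EXPB9, a beta-expansin that loosens walls, read 39223, 25728 and 101505 in fertilized eggs and 21207, 11017 and 11549.5 in egg cells, all higher (log2 change 1.75 ± 0.45 SE, adjusted p = 0.11, limma). EXPB4 was at 0.21 ± 0.22 SE (adjusted p = 0.631, limma). Vesicle traffic and membrane fusion had the lowest median of the 24 lists, -0.36, with 12 of 32 above 0. Its members with the highest signal, ARF, an ADP-ribosylation factor, at 0.60 ± 0.25 SE (adjusted p = 0.247, limma), and SCAMP6, a membrane protein of secretory vesicles, at 0.10 ± 0.23 SE (adjusted p = 0.841, limma), lay above that median. The 85 cytoskeleton genes had a median of 0.03. TubA, an alpha-tubulin, read 52555, 33239 and 75409 in fertilized eggs and 24038, 30734 and 24976 in egg cells (log2 change 0.94 ± 0.29 SE, adjusted p = 0.148, limma). TUB5, a beta-tubulin, was at 0.13 ± 0.20 SE (adjusted p = 0.76, limma). The 36 genes of the proteasome and ubiquitin had a median of 0.19. UBQ1, a polyubiquitin, read 51104, 32264 and 87612 in fertilized eggs and 26689.8, 27916 and 23562 in egg cells, higher in every array among bright probe sets (log2 change 1.01 ± 0.32 SE, adjusted p = 0.157, limma), and UBQ6 was at 1.07 ± 0.32 SE (adjusted p = 0.142, limma).

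The list medians of developmental regulators were close to the median of all genes, while single members ranged more widely. MADS-box factors had 23 kept members and a median of 0.04, with MADS24 at -0.27 ± 0.26 SE (adjusted p = 0.6, limma) and MADS45 at -0.65 ± 0.34 SE (adjusted p = 0.344, limma). Homeobox and embryo regulators had 48 kept members, 31 of them above 0, a median of 0.19 and a range of -2.75 to 1.61. Of these, Hox16 was at 0.06 ± 0.22 SE (adjusted p = 0.901, limma) and Roc5 at 0.16 ± 0.25 SE (adjusted p = 0.756, limma). All of these values are log2 changes, fertilized egg minus egg cell.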

How the data were processed

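The authors deposited MAS5 values, per the submitters' processing notes, with 1 intensity on a linear scale for every probe set of an array. The MAS5 version and scaling are not given in the sources used here. A 2% trimmed mean came to about 500.1 on each array, so the deposited intensity values share a common scale. A shift of all transcripts is not visible in such values, and changes are relative to the array.

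Of 57381 probe sets, 123 AFFX and 64 RPTR controls were left out. The array's annotation table gave 1 gene for 22436 rice probe sets, several for 95 and none for 34663. Names came from RefSeq (assembly ASM3414082v1), which held all 17905 genes.

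Here log2(signal + 15) was computed. Probe sets with a mean over the 6 arrays at or above the median of 51.4 were tested with limma 3.58.1 (R 4.3.3; lmFit, eBayes with trend), adjusted by Benjamini-Hochberg over all of them, with a threshold of 0.05. Figures were drawn with matplotlib 3.10.9 and tables made with pandas 2.3.3 under Python 3.11.15. Precision is limited by the number of arrays.

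A list counts each gene by its brightest kept probe set. The genes named are the 15 largest rises and falls past the threshold with 1 gene, an informative symbol and no overlap of the groups (fewer existed), and 5 in each direction without such a symbol. In each list they are the members that passed or, where none did, the 2 with the highest signal. Other genes given were chosen after their values were seen. The members and lists were chosen with earlier results of these data known. The test was also run on simulated data with independent noise for each value and no shifts of whole arrays. That run cannot show how far the calls depend on single arrays. Alternatives changed the offset, the filter, the normalization, the variance model and the arrays used. Replicate numbers were checked as pairs: same-numbered arrays had correlations of -0.019, -0.079 and -0.167 in their deviations, so they were not treated as pairs.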

Additional observations from a re-analysis of the deposited data

How the results depend on the processing

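With offsets of 1 and 50, no filter, a filter at the 75th percentile, quantile normalization or median centring, 124 to 182 probe sets passed. With the variance prior held constant 0 passed (0 higher and 0 lower), although 4838 had an unadjusted p below 0.05. Array weights gave 779 (322 higher, 457 lower) and the replicate block 421 (200 higher, 221 lower), although the numbers do not pair the arrays. Fitting all 9 arrays gave 12 (1 higher, 11 lower). With covariates chosen after seeing the data, 17 passed for the spike ratio (13 higher, 4 lower) and 60 for the 3′ to 5′ ratio (17 higher, 43 lower). The spike ratio's ranges do not overlap between the groups. Leaving out 1 array gave 42 to 105 calls, 15 to 68 higher and 24 to 71 lower: 53, 82 and 97 without fertilized egg replicates 1, 2 and 3, and 55, 105 and 42 without egg cell replicates 1, 2 and 3. Of the 32 named genes, 12 passed in all 6 of those fits, 5 with the spike ratio, 16 with the 3′ to 5′ ratio and 0 with all 9 arrays (adjusted p = 0.0531 to 0.473, limma) or the constant prior. With the spike ratio, the median of 9 of the 24 lists changed sign. None of the 32 named genes reversed in the alternatives run. Signal near background and 3 arrays per group limit dim genes most.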

Other observations

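Some of the genes that passed are neighbours in the RefSeq annotation. With at most 10 genes between them, the pairs in which both were higher in fertilized eggs were Cht4 and chia4a on chromosome 4 with 2 genes between, HSP17.4 and HSP18.1 on chromosome 3 with 0 between, CYP71Z7 and CPS2 on chromosome 2 with 0 between, and LOC4352488 and PBZ1 on chromosome 12 with 2 between. In the other 2 pairs, both on chromosome 1, the directions were opposite: GST-II was higher and LOC4327029 lower with 7 genes between, and LOC4325798 was higher and LOC4325981 lower with 5 between. Reads of related neighbours by shared probes were not tested.

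The zygote arrays of about 3 hap, which belong to no comparison here, read as follows for genes that passed. Cht4 read 4.62, 3711 and 4529 in zygotes, HSP18.1 read 5.63, 9394 and 949, and CYP71Z7 read 5.09, 534 and 432. In each, zygote replicate 1 was far below the other zygote arrays. RAB21 read 120.3, 29.2 and 343 in zygotes, below every fertilized egg array. Rf2 read 839, 1798 and 1556, within or below the range of the fertilized eggs. LOC4329559 read 13566, 509 and 3809.6, and ADC1 read 1426, 932 and 898. In LOC4329559, zygote replicate 1 was the only array of the 3 at the level of egg cells. JAZ7 read 9324, 4937 and 6851 in zygotes, and GST-II read 11987, 7122 and 11187, in both cases below every fertilized egg array. The differences between zygotes and fertilized eggs were not tested here.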
